A study of Mus musculus with 6 samples.

Results

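Expression of 10 genes of fibroblast growth factor (FGF) signalling was examined in gastrointestinal stromal tumours of mice: the ligand genes Fgf1, Fgf2, Fgf7, Fgf9, Fgf10 and Fgf13 and the receptor genes Fgfr1, Fgfr2, Fgfr3 and Fgfr4. They were chosen by name, and all 10 were found among the 31488 uniquely named rows of the deposited gene-level table. Of the 6 tumour samples, 3 came from mice given imatinib and 3 from mice given vehicle, both injected into the peritoneum, and each sample was hybridised to 1 Illumina beadchip. Both groups had the genotype written Kit V558Δ/+, the C57Bl/6 strain and an age of 6 weeks, so the controls carry the activating Kit allele too. Imatinib inhibits the receptor tyrosine kinase KIT, the usual driver of this sarcoma of the gut wall, as well as ABL and the PDGF receptors. Its dose and duration are not given in the labels, and although each sample is a separately numbered tumour, nothing says that each is from a different animal: the p-values therefore describe only how much these 6 samples vary, which may be technical. The protocol speaks of organs from which RNA was isolated, and the labels call the tissue GIST tumor.

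FGFs are secreted ligands that, together with heparan sulfate, bind and pair receptor tyrosine kinases, which then signal through the docking protein FRS2 and the MAPK pathway. Splicing gives the receptors an epithelial and a mesenchymal form, and FGF7 and FGF10, made by mesenchyme, act mainly on the epithelial form of FGFR2. FGF13 and its relatives FGF11, FGF12 and FGF14 stay inside the cell and are known for binding sodium channels rather than for activating receptors. FGF signalling is a described bypass route by which GIST cells keep MAPK activity while KIT is inhibited, which is the question these genes address in imatinib-treated tumours.

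The 300-base windows from RefSeq (build GRCm38.p6), 250 bases before to 50 after an annotated start, are shown for a receptor whose mean was higher with imatinib, for a mesenchymal ligand that acts on its epithelial form, and for a ligand whose mean was lower. Capitals mark the letters GGAA or their complement TTCC, the core that ETS factors such as ETV1, ETV4 and ETV5 recognise. The Fgfr2 window is chr7:130266759-130267058 on the minus strand, the Fgf10 window chr13:118714449-118714748 on the plus strand and the Fgf9 window chr14:58072436-58072735 on the plus strand.
Fgfr2: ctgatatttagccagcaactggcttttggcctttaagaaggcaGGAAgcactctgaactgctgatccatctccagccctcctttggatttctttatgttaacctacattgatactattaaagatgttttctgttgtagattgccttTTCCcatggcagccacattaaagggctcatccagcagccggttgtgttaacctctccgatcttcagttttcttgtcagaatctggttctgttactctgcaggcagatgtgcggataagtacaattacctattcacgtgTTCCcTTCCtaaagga
Fgf10: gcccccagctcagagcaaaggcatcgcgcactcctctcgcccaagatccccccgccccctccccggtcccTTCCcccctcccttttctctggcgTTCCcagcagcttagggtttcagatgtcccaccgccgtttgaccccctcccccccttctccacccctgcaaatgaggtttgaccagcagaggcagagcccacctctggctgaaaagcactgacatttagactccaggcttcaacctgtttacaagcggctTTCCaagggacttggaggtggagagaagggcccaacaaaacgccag
Fgf9: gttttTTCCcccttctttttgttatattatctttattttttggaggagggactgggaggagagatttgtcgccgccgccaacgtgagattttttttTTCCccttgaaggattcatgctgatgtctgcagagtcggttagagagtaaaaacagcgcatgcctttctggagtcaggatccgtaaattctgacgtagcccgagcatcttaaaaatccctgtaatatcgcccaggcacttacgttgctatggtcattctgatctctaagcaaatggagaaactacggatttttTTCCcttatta
The Fgfr2 window holds the core 4 times, and the Fgf10 and Fgf9 windows hold it 3 times each, counting both strands. Of 32851 such windows in the RefSeq table, 96.0% hold it at least once, with a median of 3 matches, so these counts are ordinary. None of the 3 windows holds the longer ETS letters CCGGAA or the TATA box letters TATAAA on either strand, which 14.9% and 13.6% of all windows do. The windows differ in base composition, with 43.7% G and C for Fgfr2, 60.7% for Fgf10 and 42.7% for Fgf9, against a median of 52.7% over all windows.

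Of the 10 genes, 7 were detected and 3 were not. A probe counted as detected on an array if its deposited detection p-value, taken against the negative controls of that array, was under 0.05, and a gene was tested if a probe of it was detected on at least 3 of the 6 arrays. The genes had 20 probes, of which 12 were kept. Between 18 and 61 beads lay behind each of their values. Over the whole array, 14713 of 29516 gene symbols, or 49.8%, were tested.

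Fgf2, the gene of basic FGF, was not detected on any array. Its only probe had a deposited bead signal of 31.4, 34.7 and 34.6 on the imatinib arrays, against 41.4, 36.3 and 39.2 on the vehicle arrays, and its lowest detection p-value was 0.498. Those values lie at the level of the negative controls in both groups. Neither of the probes for Fgfr3, a receptor of FGF2 and FGF9, was detected on any array. Their signals ran between 37.4 and 54.0 over the 6 arrays, with a lowest detection p-value of 0.112. Fgfr4, a receptor best known from the liver, where it reads FGF19-type hormones, was also at background, with 42.6 to 49.9 on its only probe and a lowest detection p-value of 0.0897. For Fgf2, Fgfr3 and Fgfr4 these arrays set only a bound, and a difference between the groups was not detectable.

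**Figure D1:**
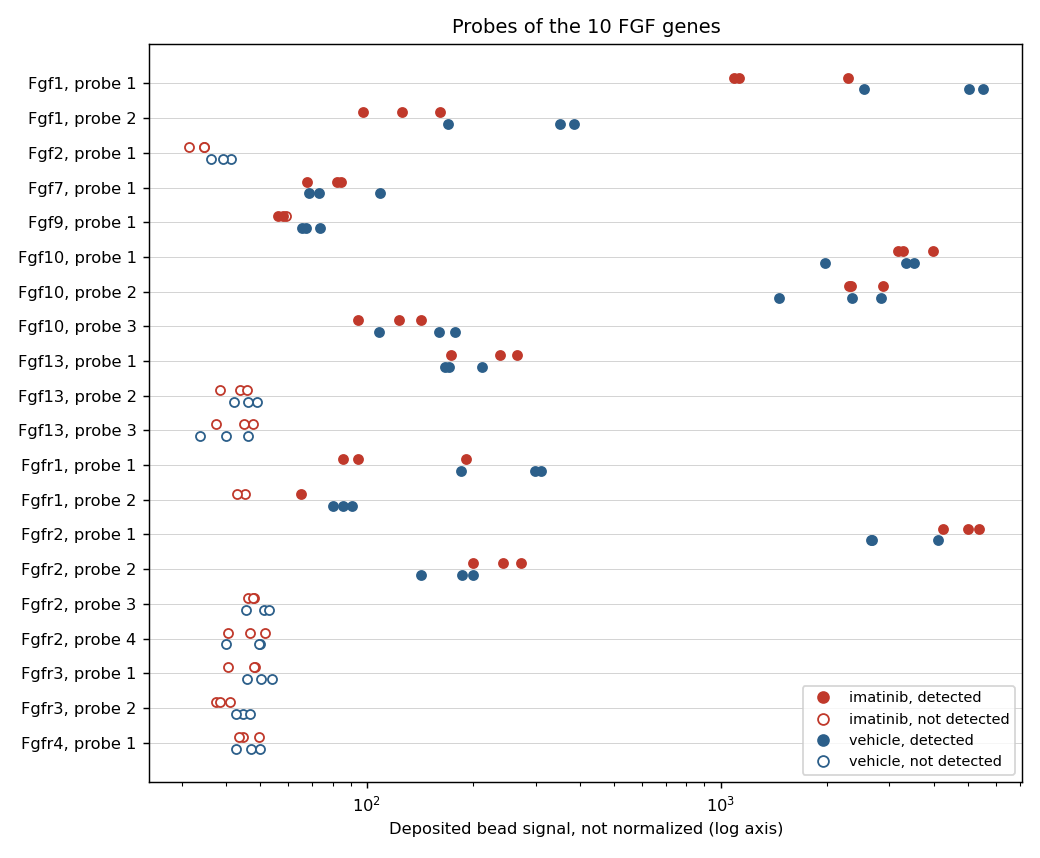
Deposited, not normalized bead signal (log axis) of all 20 probes of the 10 genes, 1 point per array, imatinib above vehicle within each row; filled points were detected at a detection p-value under 0.05. All points of Fgf2, Fgfr3 and Fgfr4 are open, as are those of 2 of the 3 Fgf13 probes and 2 of the 4 Fgfr2 probes.

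None of the 7 detected genes passed an adjusted p of 0.05 in limma, adjusted by Benjamini-Hochberg over all 14713 genes tested, of which 1.58% passed. Fgf1 and Fgfr1 had the largest differences, with lower means in imatinib tumours, and Fgfr2 had a higher mean. Of the 7, 3 had a higher mean and 4 a lower mean with imatinib, with a median log2 change of -0.01, against 0.04 over all genes tested. The groups did not overlap in Fgf1, Fgf9 and Fgfr1, each time with imatinib below vehicle. Such separation was common, at 31.9% of all genes tested, made up of 17.4% higher and 14.5% lower with imatinib. Before adjustment the limma p was under 0.05 in 4 of the 7, and in 26.4% of all genes tested.

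Fgf1 encodes acidic FGF, a ligand that binds every FGF receptor. Its normalized log2 signal was 10.12, 11.07 and 10.29 on imatinib arrays 1, 2 and 3, against 12.28, 11.28 and 12.19 on vehicle arrays 1, 2 and 3. The groups did not overlap, but imatinib 2 and vehicle 2 lay close together in the gap between the other arrays. The means were 10.50 ± 0.51 with imatinib and 11.92 ± 0.55 with vehicle (SD, n = 3 arrays each), a log2 change of -1.42 ± 0.35 (SE), or 2.68-fold lower, with an adjusted p of 0.0804 (limma). A dimmer probe of the same gene, detected on all 6 arrays, had a log2 change of -1.31 ± 0.36 (SE). Without vehicle 2, the vehicle array nearest to the imatinib arrays, the change of Fgf1 was -1.74 ± 0.29 (SE) and passed (adjusted p = 0.0389, limma). In that fit 9.4% of all genes tested passed. With any other single array left out Fgf1 did not pass. Its adjusted p then ran from 0.066 without imatinib 2 to 0.247 without vehicle 3 (limma).

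The mesenchymal ligand genes Fgf7 and Fgf10 did not pass and did not differ alike. Fgf10, needed for outgrowth of lung and limb buds and made by gut mesenchyme, had a log2 signal of 12.04, 11.61 and 11.84 on the imatinib arrays, against 11.65, 10.92 and 11.63 on the vehicle arrays. Its groups overlapped, since imatinib 2 lay below vehicle 1 and vehicle 3, and vehicle 2 was the lowest of all. The log2 change was 0.43 ± 0.23 (SE, adjusted p = 0.287, limma), with a 95% interval from -0.14 to 0.99. Its 3 detected probes did not run the same way: the other bright probe had a change of 0.34 ± 0.25 (SE), and the dim one a change of -0.32 ± 0.28 (SE). Fgf7, the keratinocyte growth factor gene, was much nearer to background, with 5.96, 5.75 and 5.53 on the imatinib arrays, against 5.41, 6.37 and 5.50 on the vehicle arrays. Only vehicle 2 stood apart. Its change of -0.01 ± 0.28 (SE) has a 95% interval from -0.69 to 0.66, so changes within that range were not resolved. Fibroblast markers, a possible source of both transcripts, had all 8 of 8 genes tested and averaged 10.52 to 10.57 on the imatinib arrays, against 9.48 to 10.65 on the vehicle arrays. Of the 8, 5 had a higher mean with imatinib and 3 a lower mean. Only in Pdgfra did the groups not overlap, without passing (log2 change 1.45 ± 0.25 SE, adjusted p = 0.0519, limma). The part of fibroblasts in the Fgf7 and Fgf10 values was not tested.

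Fgf9, a ligand that mesothelium and epithelium of the developing gut make, lay near the detection limit. Its log2 signal was 5.13, 4.98 and 5.15 on the imatinib arrays, against 5.30, 5.42 and 5.52 on the vehicle arrays. The imatinib arrays were all below the vehicle arrays, but the probe was detected on 2 imatinib arrays and on all 3 vehicle arrays. The log2 change was -0.32 ± 0.11 (SE, adjusted p = 0.148, limma). Mesothelial markers, with 5 of 5 tested, averaged 7.06 to 7.61 on the imatinib arrays, against 5.51 to 7.90 on the vehicle arrays, so their groups overlapped. Their part in the Fgf9 values was not tested.

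Fgf13, the intracellular FGF that binds sodium channels and microtubules in neurons, was detected by 1 of its 3 probes. That probe gave 7.29, 7.77 and 7.89 on the imatinib arrays, against 7.16, 7.53 and 7.08 on the vehicle arrays. Imatinib 1 lay below vehicle 2, so the groups overlapped. The log2 change was 0.39 ± 0.21 (SE, adjusted p = 0.271, limma). Markers of enteric neurons and glia, 5 of 10 of which were tested, averaged 6.65 to 7.04 on the imatinib arrays, against 6.20 to 6.44 on the vehicle arrays. Of the 5 tested, Sox10 and Nos1 rose, beside 0.523% of all genes tested that rose. Ret ran the other way without passing, with groups that did not overlap (log2 change -1.36 ± 0.37 SE, adjusted p = 0.0948, limma). S100b, Gfap and Chat were among those not tested. The part of these cells in the Fgf13 values was not tested. The other 2 Fgf13 probes stayed at background on every array, with signals of 33.8 to 48.8.

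**Figure D2:**
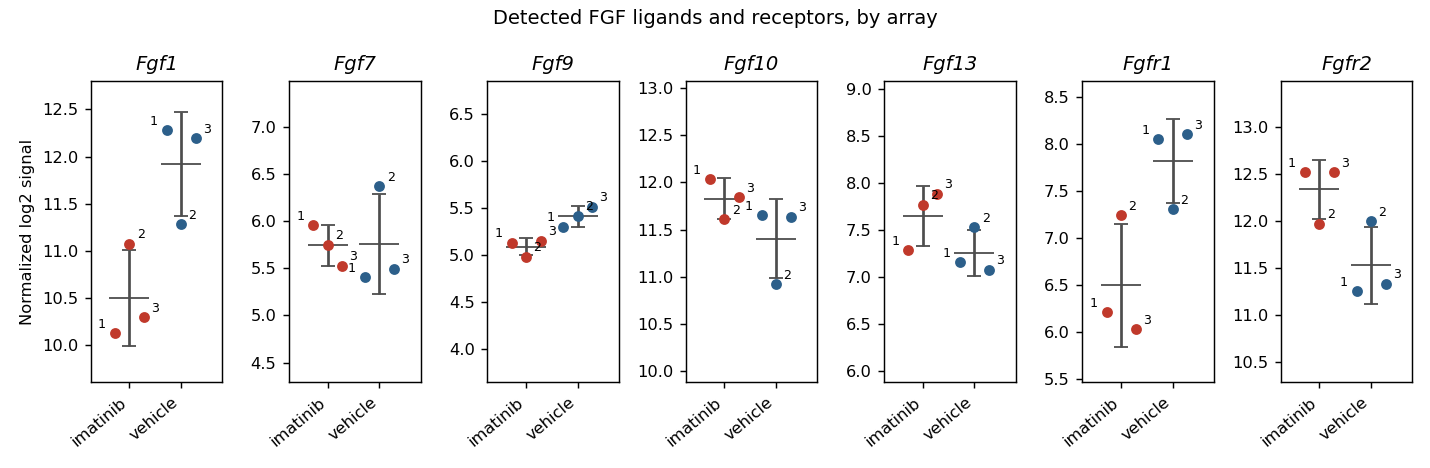
Normalized log2 signal of the 7 detected genes on each array, imatinib left of vehicle; numbers give the replicate, bars the mean and SD (n = 3), and each panel spans the same log2 range. In Fgf1, Fgf9 and Fgfr1 the imatinib points lie below the vehicle points, and in Fgf1, Fgfr1 and Fgfr2 the arrays numbered 2 lie close together.

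Fgfr1, the receptor most typical of mesenchymal cells, had a lower mean with imatinib. Its log2 signal was 6.21, 7.24 and 6.03 on the imatinib arrays, against 8.05, 7.31 and 8.10 on the vehicle arrays. Imatinib 2 and vehicle 2 again lay side by side, and the other arrays of the groups lay far apart. The means were 6.50 ± 0.65 with imatinib and 7.82 ± 0.44 with vehicle (SD, n = 3 arrays each), a log2 change of -1.32 ± 0.37 (SE), or 2.50-fold lower, with an adjusted p of 0.0977 (limma). A dimmer Fgfr1 probe gave 4.72, 5.19 and 4.58 on the imatinib arrays, against 5.90, 5.78 and 5.95 on the vehicle arrays. Its change of -1.04 ± 0.18 (SE) passed in a limma fit over all 21395 kept probes (adjusted p = 0.0447), where 2.33% of probes passed. That probe was detected on 1 imatinib array and all 3 vehicle arrays, so it was kept only through the brighter group.

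Fgfr2, whose epithelial splice form is the receptor of FGF7 and FGF10, ran the other way. Which splice form its probes read was not analysed here, so the values may be of either. Its brightest probe gave 12.51, 11.97 and 12.51 on the imatinib arrays, against 11.25, 11.99 and 11.33 on the vehicle arrays. Imatinib 2 and vehicle 2 had almost the same value and overlapped, while the remaining arrays separated by group. The means were 12.33 ± 0.31 with imatinib and 11.52 ± 0.41 with vehicle (SD, n = 3 arrays each), a log2 change of 0.81 ± 0.25 (SE), or 1.75-fold higher, with an adjusted p of 0.12 (limma). A dimmer probe had a change of 0.56 ± 0.22 (SE), and 2 further probes were at background. Without vehicle 2 the change was 1.04 ± 0.20 (SE) and passed (adjusted p = 0.0438, limma), in the fit where 9.4% of all genes tested passed. With any other single array left out Fgfr2 did not pass. Its adjusted p then ran from 0.0923 without imatinib 2 to 0.318 without vehicle 3 (limma).

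**Figure D3:**
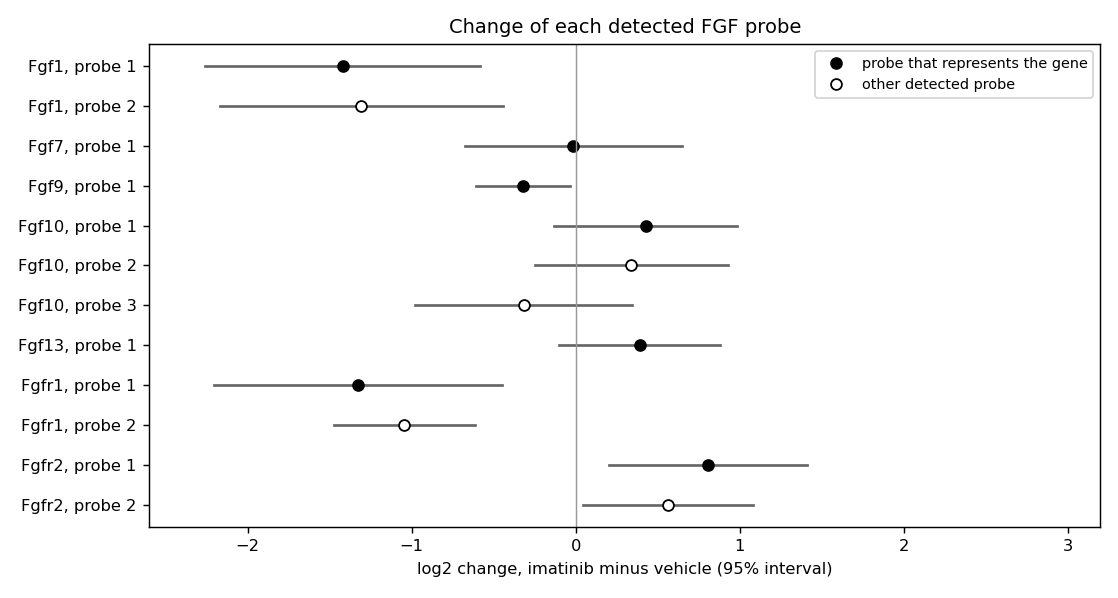
log2 change, imatinib minus vehicle, with its 95% interval, for each of the 12 kept probes; filled points represent the gene in the test. The intervals of both Fgf1 probes, both Fgfr1 probes and the Fgf9 probe lie below 0 and those of both Fgfr2 probes above 0, before adjustment for the number of genes. The dimmer Fgfr1 probe was detected on 1 imatinib array and 3 vehicle arrays, so it was kept only through the vehicle group.

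Across the 6 arrays Fgf1, Fgfr1 and Fgfr2 lay along 1 axis. Pearson's r over the arrays was 0.982 between Fgf1 and Fgfr1 (Spearman's rho 0.886) and -0.993 between Fgf1 and Fgfr2 (rho -0.943). It was 0.979 and -0.991 over the 4 arrays left without imatinib 1 and vehicle 1, the lowest and highest in Fgf1. Imatinib 3 and vehicle 3, also far apart in Fgf1, stayed in. The difference between the groups thus remained, and these values cannot test the axis apart from it. All these r values are descriptions, since the arrays share their group and few points carry them. They also follow the main axis of the whole data set: the first principal component held 60.8% of the variance, with vehicle 2 and imatinib 2 nearest to each other between the groups, and 1203 other genes had an r over 0.9 with Fgf1. The 3 named genes most like Fgf1 by Pearson's r over the 6 arrays were Myo1e, Phf6 and A2m, with r of 0.998, 0.998 and 0.995. Those most like Fgfr1 were Cbx3, Hsbp1 and Mcts1, with r of 0.998, 0.996 and 0.995, among 1290 genes with an r over 0.9.

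Markers of other cells differed along with parts of this pattern. The array means of 5 marker lists did not overlap between the groups: those of enteric neurons and glia, given above, and of endothelium, B cells, T cells and macrophages. Those of GIST and Cajal cells, fibroblasts, smooth muscle, intestinal epithelium, mesothelium, pancreatic acinar cells and adipocytes overlapped. Of all single genes tested, 31.9% did not overlap. A matching share for means of lists was not computed, so how common such separation is among them is not known. The endothelial list, with 6 of 7 genes tested, averaged a log2 signal of 8.46 to 8.73 on the imatinib arrays, against 7.97 to 8.16 on the vehicle arrays. The B cell list, with 3 of 4 tested, averaged 6.87 to 7.57 on the imatinib arrays, against 5.64 to 6.15 on the vehicle arrays. The means of the endothelial and B cell lists were thus higher with imatinib, and those of T cells and macrophages lower. Eng of the endothelial list ran the other way without passing, with groups that did not overlap (log2 change -1.48 ± 0.29 SE, adjusted p = 0.0583, limma). The T cell list, with 3 of 4 tested, averaged 7.12 to 7.90 on the imatinib arrays, against 8.50 to 8.61 on the vehicle arrays. Its r over the 6 arrays was 0.847 with Fgf1, 0.898 with Fgfr1 and -0.824 with Fgfr2. T cells were not alone in this. With the same genes in turn, r was -0.793, -0.825 and 0.758 for endothelium and 0.726, 0.825 and -0.765 for GIST and Cajal cells. It was smaller for fibroblasts, at -0.515, -0.462 and 0.503. The macrophage list, with 5 of 5 tested, averaged 10.29 to 10.77 on the imatinib arrays, against 10.78 to 11.01 on the vehicle arrays. Its groups were thus barely apart, and 2 of its genes had a higher mean with imatinib and 3 a lower mean. Kdr of the endothelial, Ms4a1 of the B cell and Cd4 of the T cell list were not tested.

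The intestinal epithelium list, 13 of whose 14 genes were tested, averaged a log2 signal of 11.13, 10.88 and 11.31 on the imatinib arrays, against 8.91, 11.26 and 10.18 on the vehicle arrays. Fabp2, a marker of absorptive enterocytes, was the one not detected. Vehicle 1, where the epithelial list was lowest, also had the lowest Fgfr2 signal and the highest Fgf1 signal. The list's r over the 6 arrays was 0.85 with Fgfr2 (rho 0.829), -0.81 with Fgf1 and -0.75 with Fgfr1. The link was thus not particular to Fgfr2. Without vehicle 1 and vehicle 3 the r with Fgfr2 was 0.466. That leaves vehicle 2 as the only vehicle array, so this value cannot show how firm the link is. The GIST and interstitial cell of Cajal list, with 5 of 6 genes tested, averaged 10.40 to 11.08 on the imatinib arrays, against 10.89 to 11.13 on the vehicle arrays. Kit itself had a log2 signal of 13.89, 14.47 and 13.48 with imatinib, against 14.39, 14.01 and 14.33 with vehicle, with overlapping groups (log2 change -0.30 ± 0.26 SE, adjusted p = 0.485, limma). That is its brightest probe: the mean of its 3 kept probes gave -0.77 (adjusted p = 0.223, limma), and leaving out 1 array moved the brightest probe's change between -0.57 and -0.07. Ano1, another defining marker, was not analysed here. In bulk tumours fewer cells of a type and less RNA per cell cannot be told apart, and the part of cell mixture in the FGF values was not tested.

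**Figure D4:**
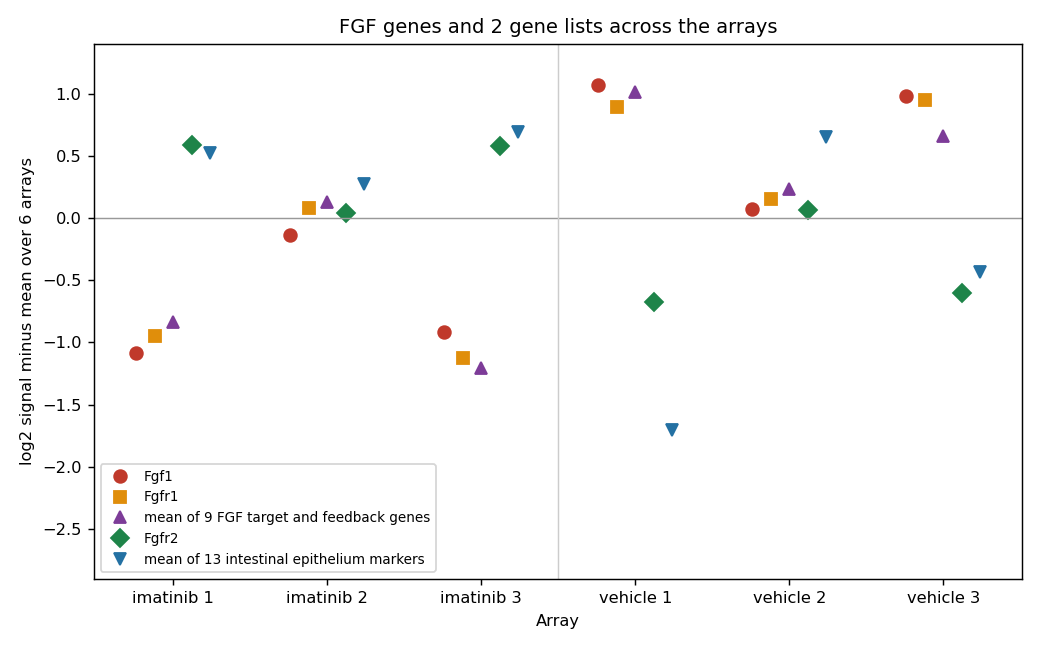
log2 signal minus the mean over the 6 arrays, for Fgf1, Fgfr1, Fgfr2, the mean of 9 FGF target and feedback genes and the mean of 13 intestinal epithelium markers, imatinib arrays left of vehicle arrays. On imatinib 2 and vehicle 2 the FGF genes lie close to 0, while the epithelial mean is lowest on vehicle 1.

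Around these genes, 45 further genes of FGF signalling were tested, and 4 passed: Flrt1 and Sdc1 rose and Sdc3 and Etv4 fell with imatinib, beside 0.523% of all genes tested that rose and 1.05% that fell. Of the 16 other FGF ligand genes, only Fgf12 and Fgf22 were detected on at least 3 arrays and neither passed. Fgf12, an intracellular relative of Fgf13, had a log2 signal of 7.03, 6.11 and 5.23 on the imatinib arrays, against 7.76, 8.35 and 7.23 on the vehicle arrays. Every imatinib array was lower (log2 change -1.66 ± 0.49 SE, adjusted p = 0.109, limma), so the changes of Fgf12 and Fgf13 had opposite signs and neither passed. The change of Fgf12 was -0.97 with the gene-level table, -0.74 with array weights and -0.64 with the authors' processed values. Fgf22, a ligand that organises synapses in the brain, had a change of -0.04 ± 0.13 (SE).

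Among 8 co-receptor and binding protein genes 6 were tested, 1 rose and 5 did not pass, with a median log2 change of 0.75, against 0.04 over all genes tested. Flrt1, a leucine-rich transmembrane protein that binds FGF receptors, had a log2 signal of 6.40, 6.74 and 6.18 on the imatinib arrays, against 5.19, 5.04 and 5.35 on the vehicle arrays. The groups lay well apart, and its 2.36-fold rise passed in limma (log2 change 1.24 ± 0.17 SE, adjusted p = 0.0418), on a probe detected on 2 of the 3 vehicle arrays. With the authors' processed values its log2 change was 0.52 and did not pass (adjusted p = 0.0556, limma). Fgfbp3, a secreted protein that releases FGFs from the matrix, had a change of 0.67 ± 0.12 (SE, adjusted p = 0.0547), and Flrt2, a relative of Flrt1, one of 0.82 ± 0.35 (SE, adjusted p = 0.198). Neither Klb nor Kl, the klotho co-receptors of the hormone-like FGFs, was detected on 3 arrays.

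Of 10 receptor adaptor genes 7 were tested and none passed, with a median log2 change of 0.02. Gab1, a docking protein that recruits PI3 kinase, had a change of 0.59 ± 0.20 (SE, adjusted p = 0.139, limma). Shc1, an adaptor for GRB2, had one of -0.61 ± 0.22 (SE, adjusted p = 0.149), and Grb2 one of -0.33 ± 0.26 (SE, adjusted p = 0.436). These 3 had the smallest p of the list. Of the 7 tested, 4 had a higher mean with imatinib and 3 a lower mean, so the adaptors showed no common direction. Only in Gab1 did the groups not overlap, with imatinib higher.

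All 21 heparan sulfate genes were tested, of which 1 rose, 1 fell and 19 did not pass, with a median log2 change of 0.00. Sdc1, the syndecan of epithelial and plasma cells, had a log2 signal of 8.87, 8.54 and 9.18 on the imatinib arrays, against 7.12, 7.37 and 7.39 on the vehicle arrays. Its change of 1.57 ± 0.19 (SE), a 2.96-fold rise, passed in limma (adjusted p = 0.0365). The change was 1.14 with the mean of its kept probes, 1.02 with the gene-level table and 0.85 with the authors' processed values, and passed in each. Sdc3, the syndecan best known from nerve and muscle, had 10.19, 9.81 and 10.07 on the imatinib arrays, against 10.85, 10.74 and 10.87 on the vehicle arrays. Its change of -0.79 ± 0.13 (SE), a 1.73-fold fall, also passed (adjusted p = 0.0496). In neither syndecan did the groups overlap. Gpc6, a glypican, had a change of -1.32 ± 0.25 (SE, adjusted p = 0.0556).

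Of 11 target and feedback genes 9 were tested, 1 fell and the other 8 missed the threshold. The mean was lower with imatinib for each of the 9, beside 6720 of all 14713 genes tested. The median log2 change of the 9 was -1.0, against 0.04 over all genes tested. In 5 of the 9 the groups did not overlap, with imatinib lower, beside 14.5% of all genes tested. The target and feedback genes answer to MAPK activity from any receptor, KIT included. Etv4, an ETS factor, was the one that fell (log2 change -3.01 ± 0.50 SE, adjusted p = 0.0481, limma), with values of 4.98, 6.80 and 5.37 on the imatinib arrays, against 9.15, 8.23 and 8.80 on the vehicle arrays. It was detected on 2 imatinib arrays, and with the authors' processed values its log2 change was -2.14, which passed too. Its relative Etv5 had a change of -2.07 ± 0.57 (SE, adjusted p = 0.0948) and the MAPK phosphatase gene Dusp4 one of -1.65 ± 0.48 (SE, adjusted p = 0.105). The mean of the 9 genes followed Fgf1 over the 6 arrays (r 0.957, rho 0.943, and 0.927 over the 4 arrays without imatinib 1 and vehicle 1). Its r was 0.984 with Fgfr1 and -0.956 with Fgfr2. These values include the difference between the groups, and 1203 other genes had an r over 0.9 with Fgf1. The 4 calls around the receptors were lost when any 1 of imatinib 1, imatinib 3, vehicle 1 and vehicle 3 was left out, since 0 genes of the whole table then passed in limma. Without vehicle 2, 8 of these 45 genes passed, the 4 among them. Without imatinib 2, Etv4, Flrt1, Sdc1 and Etv5 passed, while Sdc3 did not (adjusted p = 0.0561, limma).

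**Figure D5:**
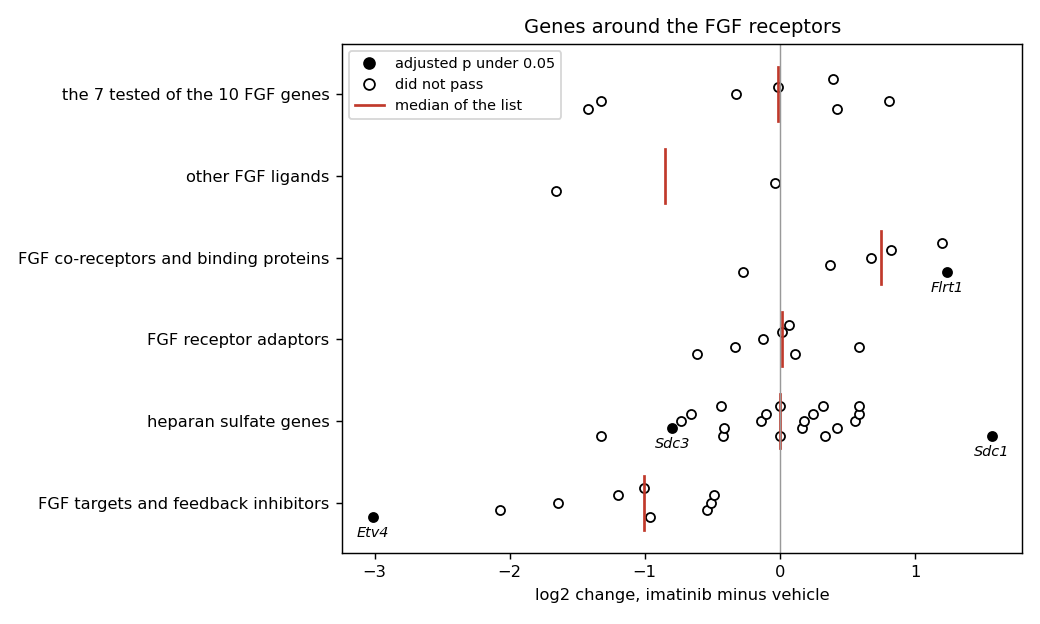
log2 change, imatinib minus vehicle, of every tested gene around the FGF receptors, by list, with the list's median as a red line; filled points passed an adjusted p of 0.05. Etv4, Sdc1, Flrt1 and Sdc3 are filled, and all 9 target and feedback genes lie below 0.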

How the data were processed

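RNA of 6 tumour samples, 3 with imatinib and 3 with vehicle by their titles, was measured on 1 array each, after 200 ng was labelled with biotin per the labels' protocols. The deposited probe table holds, per the file headers, an intensity per probe, the bead count and standard error behind it and a detection p-value, not normalized. A deposited gene-level table holds log2 values, not normalized, and the authors' processed log2 values form another table, made with Partek per the submitters' processing notes, with each column's median at 5.53. These are not centred on 0, and their normalization target is unknown. The scanner software and genome build are not given in the sources used here.

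The probe table names no genes. Each of 31492 gene-level rows equalled, on all 6 arrays, the log2 mean signal of exactly 1 run of neighbouring probes (tolerance 8e-06 log2 units, or 6.2e-05 from 10 upwards), leaving aside 4 whose identifier recurs. Names were updated through RefSeq. Intensities were corrected by normexp from the detection p-values (offset 16), quantile normalized and put on the log2 scale with limma 3.58.1 in R 4.3.3, which understates folds of dim genes. Probes detected on at least 3 arrays were kept, 21395 in all, with the brightest representing a gene, and groups were compared with lmFit and eBayes, without a block. On the 6 arrays 45.7% to 47.3% of probes were detected. The number of arrays limits the precision.

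The limma fit was tested on simulated data with noise drawn independently for each gene. Those data lack the main axis shared by genes on these arrays, so they do not show how reliable the calls here are. The genes, lists and alternatives were chosen with earlier results of these data known. The genes named are the 10 FGF genes, Kit, the called genes of each list or its 3 with the smallest p, and the 3 genes nearest to the ligand and to the receptor with the smallest p. The RefSeq windows used here covered 8 of the 10 genes. Fgf1 and Fgfr1, which had the largest differences, had no window among them. Alternatives changed the background correction, normalization, filter, probes, table, variance model, weights, block, arrays and threshold.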

Additional observations from a re-analysis of the deposited data

How the results depend on the processing

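Of the 10 FGF genes, none passed in the main setting, and 0 passed in every alternative except 3: 4 with array weights (Fgf1, Fgf9, Fgfr1 and Fgfr2), 2 without vehicle 2 (Fgf1 and Fgfr2) and 2 at an adjusted p under 0.1 (Fgf1 and Fgfr1). Leaving out 1 array at a time gave 0 to 2. The changes of Fgf1, Fgfr1, Fgf9, Fgfr2, Fgf10 and Fgf13 kept their sign in every alternative that tested them, from -1.87 to -1.14 for Fgf1, from -1.75 to -0.77 for Fgfr1 and from 0.58 to 1.09 for Fgfr2. That of Fgf7 turned to 0.0074 with cyclic loess and 0.33 with array weights, and ran from -0.19 to 0.29 with 1 array left out, above 0 without imatinib 3 and without vehicle 2. That of Fgf22 turned to 0.21 with array weights and 0.057 without vehicle 1 and imatinib 3 together, and ran from -0.14 to 0.024 with 1 array left out, above 0 without imatinib 3, vehicle 1 or vehicle 2. The changes of Etv5 and Dusp4, which did not pass in the main setting, ran from -2.73 to -1.35 and from -2.13 to -0.94. Detection at p under 0.01 left 6 of the 7 detected genes, without Fgf9.

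Over all genes the count of 232 became 484 with cyclic loess, 409 with the mean of kept probes, 382 with the deposited gene-level table, 385 with the authors' processed values, 429 with a mean-variance trend, 7589 with array weights, 1673 at an adjusted p under 0.1, and 0 without a detection filter (29516 genes tested) or without vehicle 1 and imatinib 3 together. It ran from 0 to 1360 with 1 array left out. The array weights gave vehicle 3 a weight of 19.6 and no other array over 1.78. The 4 called genes around the receptors became 7 with cyclic loess, 2 with detection on all 6 arrays, 31 with array weights, 8 at an adjusted p under 0.1, and 0 without a detection filter or without vehicle 1 and imatinib 3 together, with 0 to 8 when 1 array was left out. The replicate block gave 0 calls over all genes and 0 around the receptors. Whether same-numbered samples were paired is not given in the labels. Their deviations from the group means correlated at -0.112, -0.308 and 0.019, against -0.199 to 0.248 for differently numbered samples. With 3 arrays per group these values cannot decide whether there was a pairing. A slide block was not run, as no slide is given. The cause of these moves was not tested.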
